A study of Mus musculus with 11 samples.

Results

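The nuclear genes of the oxidative phosphorylation system were examined in primary mouse hippocampal cultures that had received a mimic of the microRNA miR-181a-5p. A gene was a member if its symbol was protein-coding and began with Nduf, Uqc, Cox4, Cox5, Cox6, Cox7, Cox8 or Atp5, or was Sdha, Sdhb, Sdhc or Sdhd. This gave 96 members among the 48709 genes of the count tables, and 93 of them were among the 17365 genes that passed the count filter (5 counts or more in 50% of samples or more) and were tested. By complex there were 44 members for complex I, 4 for complex II, 11 for complex III, 20 for complex IV and 17 for complex V. Ndufa4 and its paralog Ndufa4l2 were placed in complex IV, where the NDUFA4 protein is now assigned. The rule also takes in 12 assembly factors, which are proteins that help to build a complex and are not part of it.

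Cells came from hippocampi of CD1 mouse embryos at embryonic day 17, pooled over the embryos of a litter, so a culture is not an animal. The cultures held neurons together with glia. On day 10 in vitro, lipid nanoparticles carrying either the miR-181a-5p mimic (mimic group, 5 samples) or a negative control RNA (control group, 6 samples) were added. Both groups therefore received nanoparticles and, per the methods, apolipoprotein E4 with them, and RNA was taken after 48 hours on day 12. No source states that the samples of a group are separate cultures, so p-values measure the spread between these samples, which may be technical.

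Oxidative phosphorylation takes place in the inner mitochondrial membrane. Complexes I to IV pass electrons from NADH and succinate to oxygen, complexes I, III and IV pump protons, and complex V, the ATP synthase, uses the proton gradient to make ATP. Most subunits are encoded in the nucleus, and a small set is encoded in the mitochondrial genome. Neurons are known for their heavy use of this pathway at synapses. A microRNA lowers the level of messenger RNAs mainly through its seed, bases 2 to 8 from its 5′ end, which pairs with sites in the 3′ untranslated region (3′ UTR).

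The mimic had exactly the mature mouse sequence that RefSeq lists, and the control RNA had an unrelated seed. Both are shown because the search for sites in the members rests on them, with the seed in capitals.
miR-181a-5p: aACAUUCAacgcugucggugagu
Negative control for the mimic: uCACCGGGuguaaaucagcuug

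The 7-base match to the miR-181a-5p seed, TGAATGT, was rare in these genes. It was found in the longest annotated 3′ UTR of 3 of the 93 tested members (3.23%), against 18.5% of 14490 tested genes with an annotated 3′ UTR. The 3′ UTRs of the members are short, with a median of 235 bases against 1201 bases for all of these genes, and the density of matches was 0.0649 per kb against 0.143 per kb. The 3 sites lie in Sdha (chr13:74322344-74322350, minus strand, GRCm38), which encodes the flavoprotein of complex II, and in Atp5l (chr9:44913326-44913332, minus strand) and Atp5g2 (chr15:102664767-102664773, minus strand), which encode subunits g and c of ATP synthase. They are printed in the direction of the transcript with the match in capitals.
Sdha: tacttctcactgTGAATGTaactagtt
Atp5l: tgagttcttattTGAATGTtcttggac
Atp5g2: gccctgcttgttTGAATGTtggcatta

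In Sdha alone the match was followed by an A, which makes it an 8-base site. The level of Sdha lay between 315 and 327 CPM (counts divided by the library size after edgeR's TMM scaling) in the control samples, with a median of 325 CPM. In the 5 mimic samples it was 312, 321, 327, 323 and 314 CPM, so the groups overlapped. Its log2 fold change (mimic over control) was -0.02 ± 0.02 (SE), and the adjusted p was 0.781 with edgeR's quasi-likelihood test and Benjamini-Hochberg adjustment over all 17365 genes. Atp5l and Atp5g2 had log2 fold changes of 0.05 ± 0.08 and 0.06 ± 0.14, and neither was called. Both share most of their sequence with other annotated transcripts, as given below, so these fold changes are uncertain. A shorter 6-base match was found in 11 members (11.8%, against 36.6% of all tested genes with a 3′ UTR). Ndufaf4 and Cox5b each had 2 such matches, and their values, given below by complex, had opposite signs.

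No member was called. At an adjusted p under 0.05, edgeR called 0 of the 93 tested members, where 2.85% of all tested genes were called (495 of 17365), and DESeq2 also called 0 members, where it called 3.21% of all genes. At an unadjusted p under 0.05 there were 9 members (9.68%) against 15.7% of all tested genes with edgeR, and 10 members against 12.9% of all genes with DESeq2. Of the 9, 5 were higher and 4 were lower in the mimic samples. The smallest adjusted p among members was 0.0817, for Cox6b2.

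The data bounded most of the changes closely. The fitted level of 51 members differed by under 2% between the groups, and that of 81 members by under 5%. For 83 of the 93 members (89.2%) the 95% interval lay inside a 1.2-fold change in both directions, against 61.4% of all tested genes. Members with a mean of at least 10 CPM gave 81 of 82, and all tested genes at that level gave 96.0%, so the share for members was close to that of other genes at that level. Among those 82 members the log2 fold change ranged from -0.17 to 0.10, with standard errors between 0.02 and 0.06. The interval went beyond 1.2-fold for 10 members, Atp5g1, Atp5g2, Cox6a2, Cox6b2, Cox7a1, Cox7c, Cox8b, Ndufa4l2, Ndufaf6 and Ndufb4. All of these except Atp5g1 had a mean under 10 CPM, at a depth of 17287168 to 48091231 counts per sample. A 1.2-fold change was thus not excluded for the 10. For some of them the fitted change itself was beyond 1.2-fold, as in Cox6b2 and Ndufa4l2 (log2 fold changes 0.35 and 0.73).

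The median log2 fold change over the 93 members was 0.01, with 60 above and 33 below 0. Over all tested genes it was -0.00015, with 49.9% above 0. The members are short genes, and 70 of the 93 are in the shortest of 3 equal classes of tested genes by exon length, where the median log2 fold change of all genes was 0.016 and that of the members 0.015. When a trend of level with gene length was removed in each sample, the median of the members became -0.002, with 50 below and 43 above 0.

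**Figure D1:**
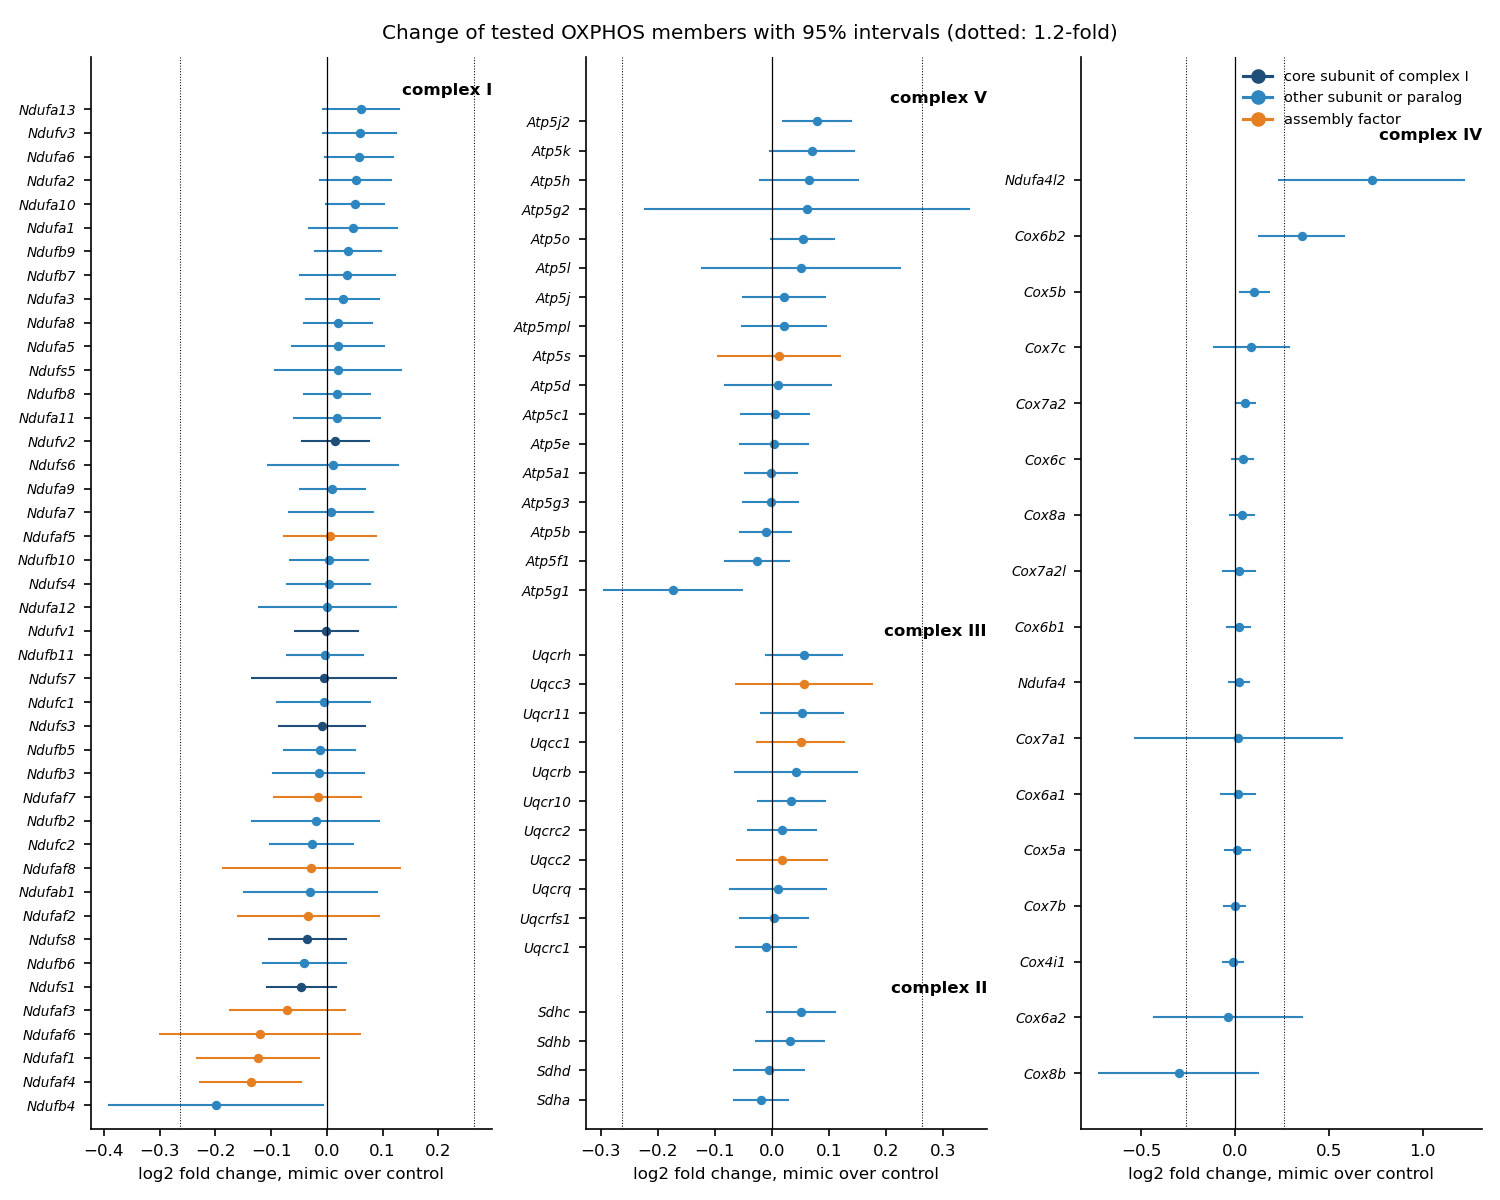
The plot shows the log2 fold change of 92 of the 93 tested members (points) with 95% intervals (lines), ordered within each complex and coloured by role, with 0 as a solid line and a 1.2-fold change in either direction as dotted lines. The 3 panels have different horizontal scales. Intervals lie inside the dotted lines for 82 of those drawn, and the wide ones belong to members with low counts.

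Levels were compared between genes as CPM per kb of the annotated principal transcript, from the mean of the 6 control samples. Complex V held the highest, Atp5b at 620 and Atp5a1 at 398 CPM per kb, which encode the beta and alpha subunits of the catalytic F1 head. The medians over tested subunits were 63.0 CPM per kb for complex I (36 subunits), 102 for complex II (4), 110 for complex III (8), 117 for complex IV (17, paralogs included) and 115 for complex V (16). The highest member was Ndufb9 in complex I (137 CPM per kb), Sdha in complex II (112), Uqcr10 in complex III (184) and Cox4i1 in complex IV (344). Divided by all exons of the gene instead, the highest were Ndufa2 (95.5 CPM per kb), Sdhd (111), Uqcr10 (136), Cox8a (279) and Atp5a1 (314), so the top gene depends on the length used in all complexes but III. The 12 assembly factors had a median of 13.6 CPM per kb, with a range from 6.11 for Ndufaf6 to 60.7 for Uqcc2.

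Some subunits had far fewer reads than others of their complex. Atp5g2 was at 2.18, Ndufb4 at 4.19, Atp5l at 9.10 and Cox7c at 9.52 CPM per kb, against the medians of 63.0 to 117 for their complexes. These transcripts share sequence with other loci. Of all 50-base windows, the length of a read, only 12.6% in Atp5g2, 15.2% in Atp5l, 47.0% in Cox7c and 63.0% in Ndufb4 were found in no other annotated transcript. The genes sharing the rest were mostly pseudogenes, 12 of 14 for Atp5l and 3 of 3 for Cox7c. Over the 12 tested subunits with under 70% unique windows the median level was 34.3 CPM per kb, against 91.8 for the 51 with at least 90%. Ndufab1, the mitochondrial acyl carrier protein, was also low at 3.35 CPM per kb with 87.7% unique windows. How reads with several matching places were counted is not given in the sources used here, so levels of members with few unique windows are uncertain, and their part in the low levels was not tested. For 11 tested members over 20% of the principal transcript overlaps exons of another gene, among them Atp5o (48.6%), Cox5a (41.7%) and Cox4i1 (20.1%), and the strand setting of the counting is likewise not given.

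**Figure D2:**
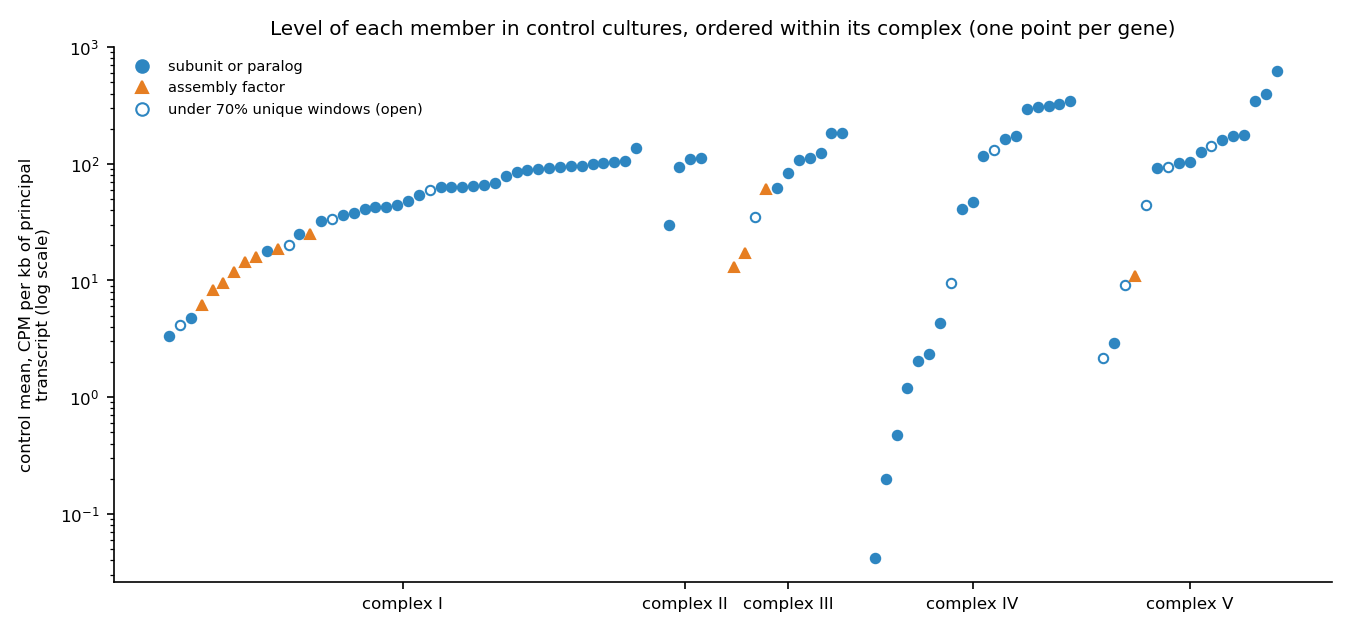
The vertical axis gives the control mean of each member in CPM per kb of principal transcript on a log scale, with one point per gene ordered within its complex. Triangles are assembly factors and open symbols are genes with under 70% unique 50-base windows. Cox8c, with no counts, is not drawn. Complexes IV and V span the widest range, with tissue-restricted paralogs and genes with few unique windows at the bottom.

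Complex I takes electrons from NADH. Its 7 catalytic core subunits encoded in the nucleus had a median log2 fold change of -0.01, with 2 above and 5 below 0, and the lowest value was -0.05 (Ndufs1). Their levels stayed within a few percent between groups, as in Ndufv1, the NADH-binding subunit, at 110 ± 2.59 CPM in controls and 110 ± 2.99 CPM in mimic samples (SD, n = 6 and 5). The 75 kDa subunit Ndufs1 was at 128 ± 4.37 and 124 ± 5.24 CPM. None of the 7 had an unadjusted p under 0.05, and all 7 intervals lay inside 1.2-fold. Of the others, Ndufv2, Ndufs3, Ndufs7 and Ndufs8 had log2 fold changes of 0.02, -0.01, -0.01 and -0.04.

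The 29 accessory subunits, which surround the core, had a median log2 fold change of 0.01, with 20 above and 9 below 0. The range was -0.20 for Ndufb4 to 0.06 for Ndufa13. Ndufb4 lay between 3.61 and 4.69 CPM in controls (median 4.01 CPM). In mimic samples it was 3.60, 3.23, 3.84, 3.54 and 3.74 CPM. Of the mimic samples 3 lay below all controls, and the other 2 within the control range. The fitted log2 fold change was -0.20 ± 0.09 with an unadjusted p of 0.0435 from edgeR and an adjusted p of 0.297, and it is one of the genes with few unique windows.

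Of the 8 assembly factors of complex I, 7 had a log2 fold change below 0, with a median of -0.05, and 0 were called. Their difference from the subunits of the complex was not tested. Ndufaf4, which acts in building the complex together with Ndufaf3, lay between 27.6 and 32.3 CPM in controls (median 30.3 CPM). In mimic samples it was 26.7, 27.2, 28.6, 25.8 and 29.8 CPM. Of the mimic samples 3 lay below all controls, and the other 2 within the control range. For Ndufaf4 the log2 fold change was -0.14 ± 0.04 (95% interval -0.23 to -0.05), with an unadjusted p of 0.00463 from edgeR and an adjusted p of 0.0957. Without mimic replicate 5 the adjusted p of Ndufaf4 was 0.0455 and it was called, and over 21 alternative settings this p ranged from 0.0455 to 0.288.

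Ndufaf1, part of the complex that assembles the membrane arm, lay between 16.4 and 19.1 CPM in controls (median 16.9 CPM) and at 15.4, 17.2, 15.7, 15.9 and 14.5 CPM in mimic samples. All but 1 of the mimic samples were below the lowest control, and the groups overlapped through the other. This gave a log2 fold change of -0.12 ± 0.05 and an adjusted p of 0.246 from edgeR. Ndufaf3 and Ndufaf6 had values of -0.07 ± 0.05 and -0.12 ± 0.09. Ndufaf5 was the assembly factor of complex I above 0, at 0.01 ± 0.04. The 3 assembly factors of complex III, Uqcc1, Uqcc2 and Uqcc3, had log2 fold changes of 0.05, 0.02 and 0.06, all above 0. The difference between the assembly factors of the 2 complexes was not tested.

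Complex II, succinate dehydrogenase, is also an enzyme of the citric acid cycle. Its 4 subunits had log2 fold changes of -0.02 ± 0.02 (Sdha), 0.03 ± 0.03 (Sdhb), 0.05 ± 0.03 (Sdhc) and -0.01 ± 0.03 (Sdhd). The smallest adjusted p was 0.417, for the membrane anchor Sdhc, which was at 94.9 ± 2.61 CPM in controls and 98.2 ± 2.81 CPM in mimic samples. Sdhb, the iron-sulfur subunit, was at 106 ± 1.76 and 109 ± 4.69 CPM. All 4 intervals lay inside 1.2-fold.

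Complex III passes electrons from ubiquinol to cytochrome c. Of its 11 members, 10 had a log2 fold change above 0, with a median of 0.03, and all intervals lay inside 1.2-fold. The smallest adjusted p was 0.424, for Uqcrh, the hinge protein near cytochrome c1. It lay between 94.1 and 108 CPM in controls, with a median of 101 CPM. In mimic samples it was 101, 103, 104, 105 and 108 CPM, within the control range. Uqcr11 and Uqcc1 followed, with log2 fold changes of 0.05 ± 0.04 each and adjusted p-values of 0.524 and 0.581 from edgeR. The core proteins Uqcrc1 and Uqcrc2 were at -0.01 ± 0.03 and 0.02 ± 0.03.

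Complex IV reduces oxygen. Of its 17 tested members 13 were above 0, with a median log2 fold change of 0.02. An unadjusted p under 0.05 from edgeR was found for 4 (23.5%), against 15.7% of all tested genes. All 4 were higher in the mimic samples, and 0 were called. Cox6b2, a form of subunit VIb known from testis, had the smallest p of all members. It lay between 2.16 and 3.03 CPM in controls (median 2.42 CPM). In mimic samples it was 3.40, 3.46, 2.70, 3.03 and 3.46 CPM. Mimic replicates 3 and 4 fell within the control range, and the other 3 lay above all controls. For Cox6b2 the log2 fold change was 0.35 ± 0.11 (95% interval 0.13 to 0.58), with an unadjusted p of 0.00343 from edgeR and an adjusted p of 0.0817. Without control replicate 3 its adjusted p was 0.0496 and it was called, and over 21 alternative settings this p ranged from 0.0496 to 0.213.

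Ndufa4l2, a paralog of Ndufa4 known to be induced by hypoxia, was close to the lower end of detection. In controls it lay between 0.292 and 0.688 CPM (median 0.395 CPM), from 5 to 21 counts per sample. In mimic samples it was 0.912, 0.532, 0.865, 0.836 and 0.616 CPM, from 13 to 21 counts. The groups overlapped through 2 mimic samples and 2 controls. This gave a log2 fold change of 0.73 ± 0.24 (95% interval 0.24 to 1.22) with an adjusted p of 0.103 from edgeR. With the replicate number as a block it was 0.94 and was called (adjusted p 0.0474), although no sign was seen that the numbers pair the samples. Over 20 alternative settings its adjusted p ranged from 0.0474 to 0.222.

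Cox5b and Cox7a2, subunits found in all tissues, had small differences with tight replicates. Cox5b lay between 36.8 and 42.0 CPM in controls and was 44.4, 43.2, 44.1, 41.0 and 44.5 CPM in mimic samples, with 4 of 5 above all controls. Its log2 fold change was 0.10 ± 0.04 and its adjusted p 0.151 from edgeR. Cox7a2 lay between 110 and 115 CPM in controls and was 119, 118, 121, 116 and 118 CPM in mimic samples. It was the only tested member whose groups did not overlap, where 2.89% of all tested genes had groups apart, and its log2 fold change of 0.06 ± 0.03 had an adjusted p of 0.271 from edgeR. The members of the complex with the highest levels in CPM per kb of principal transcript, Cox4i1, Ndufa4, Cox8a, Cox6a1 and Cox6b1, had log2 fold changes of -0.01, 0.02, 0.04, 0.01 and 0.02, with standard errors of 0.03 to 0.04.

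Complex V makes ATP. In its F1 head, Atp5a1 was at 984 ± 9.19 CPM in controls and 983 ± 28.8 CPM in mimic samples. Atp5b lay between 1179 and 1209 CPM in controls and between 1138 and 1226 CPM in mimic samples. These genes had log2 fold changes of -0.002 ± 0.02 and -0.01 ± 0.02. Atp5g1, one of 3 genes that encode subunit c of the membrane ring, lay between 12.2 and 14.6 CPM in controls (median 13.9 CPM). In mimic samples it was 13.5, 11.3, 12.1, 11.6 and 12.6 CPM, and 3 of these lay below all controls. For Atp5g1 the log2 fold change was -0.17 ± 0.06 (95% interval -0.29 to -0.05) with an unadjusted p of 0.00646 from edgeR and an adjusted p of 0.117. Of its 50-base windows 88.4% were unique, and 366 other genes shared at least 1 of the rest. Atp5j2, subunit f of the membrane part Fo, lay between 84.2 and 90.7 CPM in controls and was 88.6, 94.0, 96.9, 91.5 and 91.3 CPM in mimic samples. All but 1 of the mimic samples were above all controls, with a log2 fold change of 0.08 ± 0.03 and an adjusted p of 0.160 from edgeR. Atp5o, which encodes the subunit that links F1 to the stalk, followed with 0.05 ± 0.03 (adjusted p 0.331), and its counts are uncertain for the overlap with another gene.

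**Figure D3:**
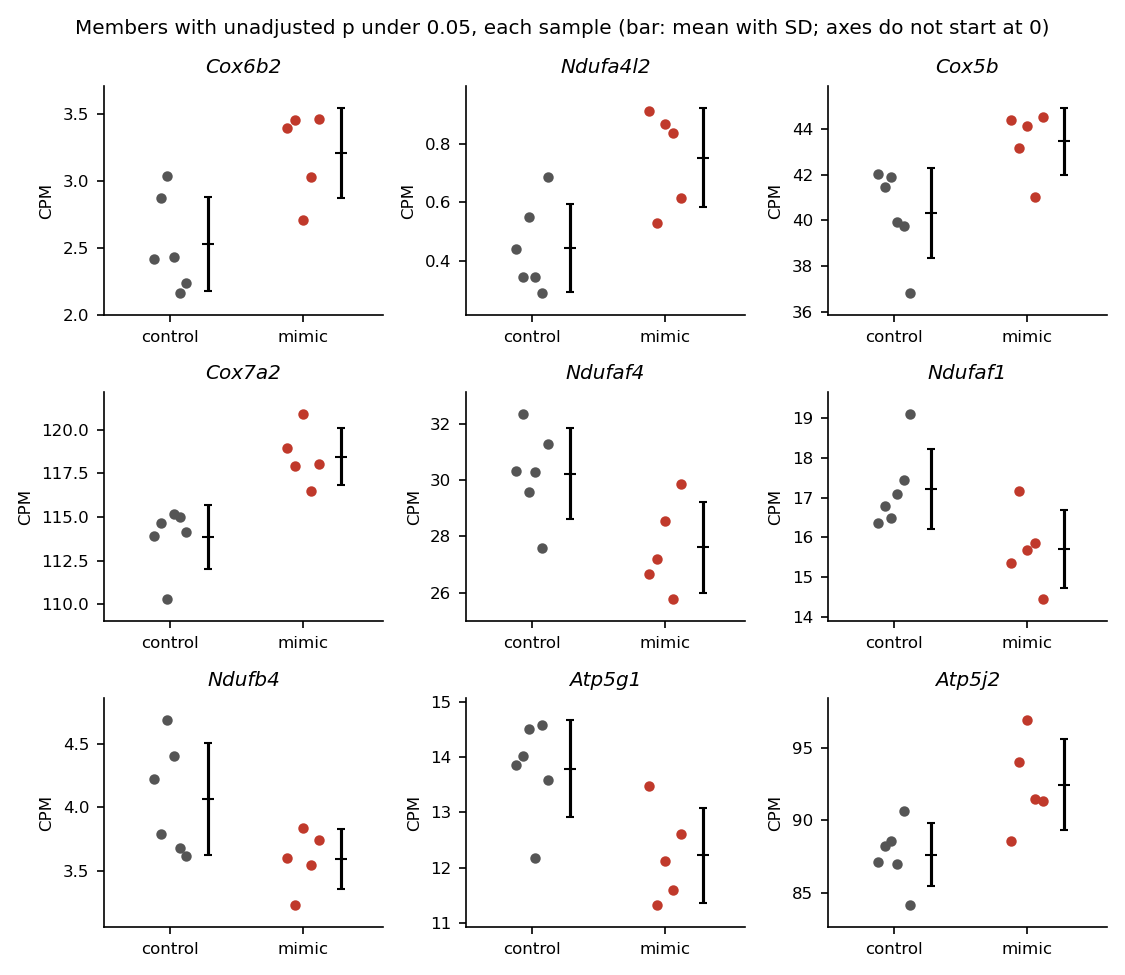
Each panel shows 1 of the 9 members with an unadjusted p under 0.05, in CPM, with 6 control and 5 mimic samples as points and the mean with SD beside them. Vertical axes differ and do not start at 0. The groups overlap in each panel except that of Cox7a2, and 0 of the 9 passed the adjusted threshold.

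Several subunits exist in forms encoded by separate genes, and the share of the second gene in the sum of both, counted per kb of exon, was compared between groups. Of 10 pairs, 8 had both genes above the count filter and were tested by exact permutation, two-sided, with all 462 ways to regroup the samples (the smallest p this allows is 0.00433) and adjustment over the 8 pairs. No pair passed at 0.05. In complex IV the ubiquitous genes made up nearly all of the sum. Cox6a2, Cox7a1 and Cox8b, the forms of heart and skeletal muscle, were at 0.476% ± 0.0622, 1.24% ± 0.477 and 0.828% ± 0.0989 of their pairs in control samples (SD, n = 6).

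The share of Ndufa4l2 was 0.282% ± 0.0930 in controls and 0.469% ± 0.0999 in mimic samples (SD, n = 6 and 5), with an exact permutation p of 0.0216 and an adjusted p of 0.0924. That of Cox6b2 was 0.872% ± 0.126 and 1.09% ± 0.147, with an exact p of 0.0346 and the same adjusted p. Atp5g1 made up 2.40% ± 0.155 of its sum with Atp5g3 in controls and 2.13% ± 0.158 in mimic samples (exact p 0.0260, adjusted p 0.0924). The size of these differences depends on the length used. For Atp5g1 it was -0.263 percentage points per kb of exon, -0.560 on raw counts and -0.0936 per kb of principal transcript. The same 3 measures gave 0.221, 0.341 and 0.360 points for Cox6b2 and 0.187, 0.149 and 0.0972 points for Ndufa4l2, and the adjusted p was 0.0924 for each. These shares use the same counts as the single-gene results above and are no separate support for them. The first genes of these pairs, Ndufa4, Cox6b1 and Atp5g3, had log2 fold changes of 0.02, 0.02 and -0.002. The shares of Cox6a2, Cox7a1, Cox7a2l, Cox8b and Atp5g2 had adjusted exact p-values between 0.156 and 0.909. Of these, Cox7a2l, known from the assembly of supercomplexes, was at 19.7% ± 0.898 and 19.4% ± 0.917 of its sum with Cox7a2.

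The members that were not tested are tissue-restricted forms of complex IV subunits. Cox8c had 0 counts in all samples, which by a limit of 3 counts allows up to 0.0631 CPM in the deepest library and 0.175 CPM in the shallowest, for counting error only. Cox4i2, a form known from lung and from low oxygen, had 1, 0, 0, 3, 1 and 0 counts in the control samples and 0, 2, 2, 2 and 0 counts in the mimic samples. Cox7b2 had 7, 2, 1, 5, 1 and 3 counts in controls and 2, 4, 1, 1 and 7 counts in mimic samples. With no count filter 95 members were tested and 0 were called. Counts this low bound a difference only loosely.

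**Figure D4:**
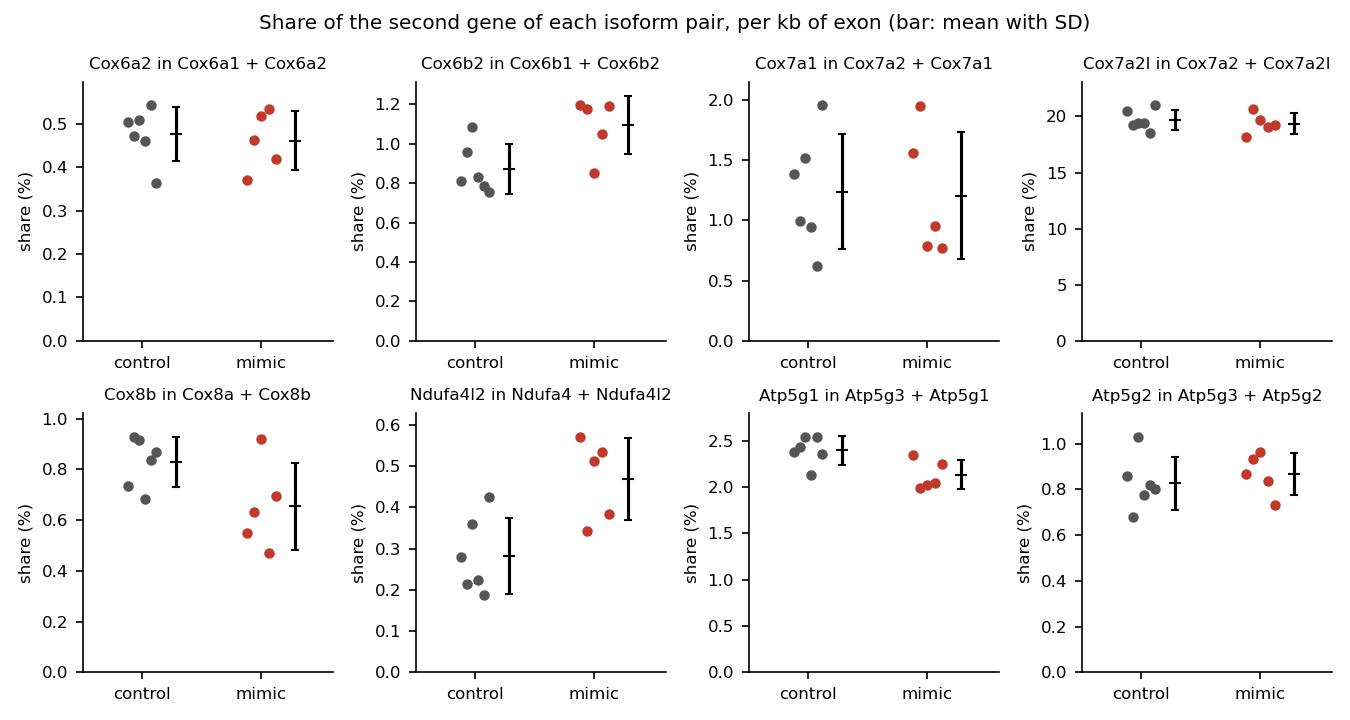
Each panel gives the share of the second gene of a pair in percent, per kb of exon, in each of the 6 control and 5 mimic samples, with mean and SD. Ndufa4l2 and Cox6b2 have higher means and Atp5g1 a lower mean in the mimic samples, with overlap in each, and 0 of the 8 pairs passed the adjusted threshold.

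Summed over genes, the groups overlapped in each complex. The summed level of the tested members was 8890 ± 80.7 CPM in controls (8822 to 9018 CPM) and 8949 ± 201 CPM in mimic samples (8755 to 9278 CPM), a difference of 0.662% with full overlap. The highest sum was that of mimic replicate 3. The median deviation of its members from each gene's mean over all samples was 0.055 on the log2 scale, and it was the highest of all 11 samples in 4 of the 5 complexes, while the other mimic samples ranged from -0.016 to 0.023. Complex IV was at 1522 ± 17.3 CPM in controls and 1546 ± 47.5 CPM in mimic samples, a difference of 1.57% that was 0.218% without mimic replicate 3. Without this replicate the median log2 fold change of the members was 0.004, with 48 above and 45 below 0. For the 12 assembly factors the median deviation lay between 0.01 and 0.03 in controls. The mimic samples were at -0.03, 0.02, -0.01, -0.05 and -0.02, so 4 of the 5 lay below all controls and the overlap came from mimic replicate 2. This difference was not tested.

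**Figure D5:**
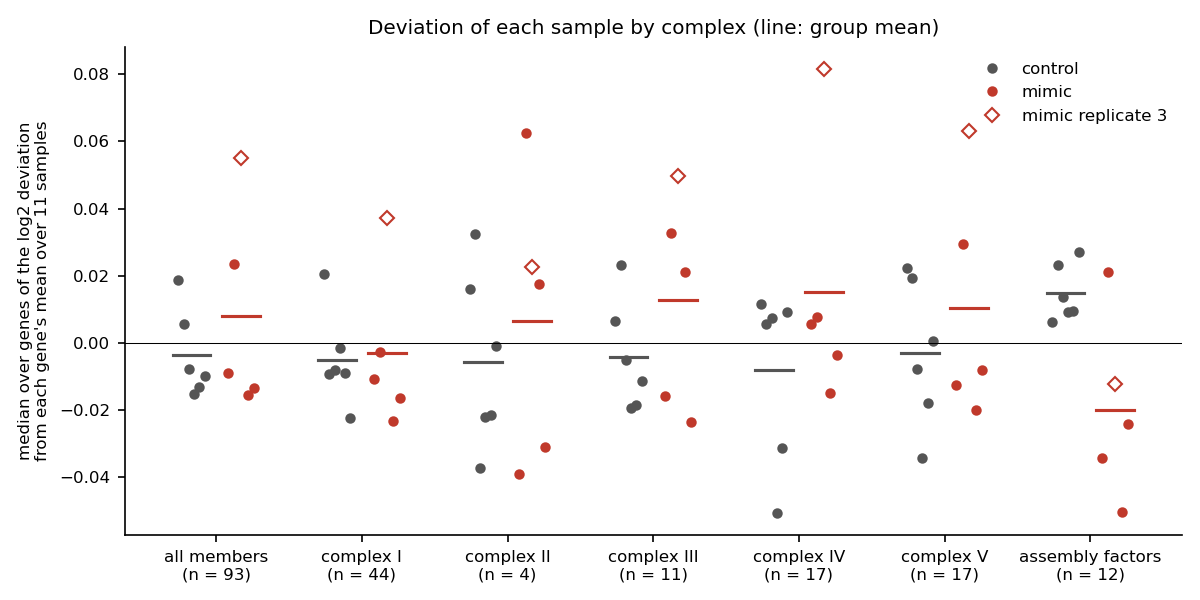
The vertical axis gives, for each sample, the median over the genes of a class of the log2 deviation from each gene's mean over the 11 samples, with n genes per class and a line at each group mean. Control and mimic samples overlap in each class, among the assembly factors only through mimic replicate 2. Mimic replicate 3 (open diamond) is the highest sample in complexes I, III, IV and V, but not among the assembly factors.

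The subunits encoded in the mitochondrial genome gave no call either. Of 13 such messenger RNAs, 7 were tested, and their log2 fold changes had a median of -0.03 with 6 below 0. The other 6 were not tested, and 5 of them were listed at 0 in all samples, among them mt-Co2 and mt-Atp6, which every cell uses, so a 0 here is no measure of expression. The ratio of nuclear subunits to mitochondrial messenger RNAs was 0.294 ± 0.00842 in controls and 0.301 ± 0.0223 in mimic samples. The groups overlapped, and this ratio misses the mitochondrial genes listed at 0.

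Gene lists around the pathway gave few calls. Among 31 tested assembly factors outside the members 0 were called, with 22 above 0. The 77 tested proteins of the mitochondrial ribosome had 0 called (49 above 0, median 0.01). Among 13 citric acid cycle genes 0 were called, among 13 regulators such as Esrra, a nuclear receptor of mitochondrial genes, 0 were called, and among 13 genes of the mitochondrial membrane and import 0 were called. The smallest p among regulators was that of Esrra (log2 fold change -0.11 ± 0.05, adjusted p 0.203 from edgeR). Cycs, which encodes the cytochrome c that carries electrons from complex III to complex IV, had a log2 fold change of -0.10 ± 0.07, and Cyc1, the cytochrome c1 subunit of complex III, one of -0.03 ± 0.03. Neither was called. Of 16 glycolysis genes 1 was called, Ldhb, a subunit of lactate dehydrogenase, which rose from 96.9 ± 2.79 to 104 ± 2.29 CPM (log2 fold change 0.10 ± 0.03, adjusted p 0.0470 from edgeR).

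Markers of neurons and of other cell types were present, with calls in some lists and 0 in others, and in bulk samples fewer cells of a type and less RNA per cell cannot be told apart. Summed over 10 neuronal markers the level was 8197 to 8389 CPM in controls and 8018 to 8153 CPM in mimic samples, with 1 called lower (Slc17a7) and 1 called higher (Slc17a6), both vesicular glutamate transporters. For 8 astrocyte markers the sum was 4511 to 4890 and 4148 to 4396 CPM, with 1 called lower, the glutamate transporter Slc1a2. This gene had the largest part in the sum, with means of 2398 CPM in controls and 2109 CPM in mimic samples. The next, Slc1a3, had means of 1045 and 1046 CPM. Of the 8 astrocyte markers 6 were lower and 2 higher. For 8 markers of fibroblasts and mural cells the sum was 262 to 397 and 405 to 539 CPM, and the 1 called, Rgs5, was lower. Of these 8 markers 6 were higher and 2 lower, with a median log2 fold change of 0.42. Of 8 cycling markers 3 were called higher, where 2.85% of all tested genes were called in either direction. Of 4 tested endothelial markers 1 was called higher (Cdh5, with means of 1.77 and 2.96 CPM). The other tested endothelial markers, Kdr, Flt1 and Pecam1, had log2 fold changes of 0.04, 0.08 and 0.05. Of 8 markers each of the oligodendrocyte lineage and of microglia 0 were called, and their sums were 315 to 381 against 288 to 331 CPM and 24.0 to 26.6 against 23.4 to 25.5 CPM. No marker of these lists was at 0 in all samples, although Cldn5 was above 0 in control replicate 1 only. The part of these markers in the values of the members was not tested.

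The promoters, which the choice of genes did not use, were searched for the letters of 5 motifs. RefSeq (GRCm38.p6) gave the 250 bases before and 50 bases after the start site for 79 members and 17491 protein-coding genes in all. The letters GCGCATGC on either strand, which the factor NRF1 binds, were in 12 members (15.2%) against 3.93% of all genes. AAGATGGC, bound by YY1, was in 12 members (15.2%) against 3.57%, and TCAAGGTCA, bound by estrogen-related receptors, in 2 members (2.53%) against 0.377%. CCGGAAGT, bound by ETS factors such as GABPA, was in 5 members (6.33%) against 5.69%, and the TATA box letters TATAAA in 7 members (8.86%) against 14.8%. Each was thus found in a minority of the members, no test of enrichment was made, and these are matches of letters and not measured binding. For 4 members of different complexes the NRF1 letters, as their reverse complement GCATGCGC, are printed in capitals in the direction of the gene.
Ndufaf4, chr4:24897962-24897989, plus strand: agatgtctgcGCATGCGCctgtgcggaa
Sdhb, chr4:140961207-140961234, plus strand: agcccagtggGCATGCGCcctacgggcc
Uqcrc1, chr9:108936670-108936697, plus strand: tccgctctgcGCATGCGCagcgcggctc
Cox6a1, chr5:115349101-115349128, minus strand: ggaacggggcGCATGCGCgctctcgctc

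These 4 genes had log2 fold changes of -0.14, 0.03, -0.01 and 0.01, and none was called.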

How the data were processed

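Libraries were poly(A)-selected (TruSeq) and read as 50-base single ends. Per the labels, the authors mapped reads to GRCm38 (mm10) with STAR 2.5.2b and deposited raw counts per Ensembl gene from featureCounts (Subread 1.5.1); annotation release, strand and multiple-mapping options are not given in the sources used here. They also deposited a table of normalized signal, which equals the counts divided by a size factor per sample. Symbols, lengths and 3′ UTRs came from GENCODE M21, and 96 of 97 named symbols were among the genes of the deposited counts. Genes with 5 counts or more in 50% of samples or more were tested with edgeR 4.0.16 (TMM, quasi-likelihood, adjusted p under 0.05) in R 4.3.3. DESeq2 1.42.0 and limma 3.58.1 served as alternatives. Intervals are 95%, from the standard error and the test's degrees of freedom. Scripts were tested on simulated data. Members and lists were chosen with earlier results of these data known. Named genes were the 3 smallest p and the highest level per complex, isoform pairs, core subunits, genes with a seed match and untested members. Same-numbered samples did not deviate together (correlations -0.0532 to 0.0487, against -0.1217 to 0.117 for other pairs). No sign of pairing by number was thus seen, which does not exclude pairing. The values of 1 member, which entered the fits, counts and medians, are not reported here by name.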

Additional observations from a re-analysis of the deposited data

Results flagged for a closer look

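Each of 84 sets of values (a measure within 1 group) was searched for a sample far from the others by Dixon's ratio, which chance passes in about 1 of 20 sets, and 3 were found. The share of counts on the mitochondrial genome was 3.48% in control replicate 2, against 3.20% to 3.26% in the other controls. The summed level of complex IV was 1629 CPM in mimic replicate 3, against 1510 to 1538 CPM in the other mimic samples. Cox8a was at 190 CPM in mimic replicate 3, against 173 to 175 CPM in the other mimic samples.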

How the results depend on the processing

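The count of called members was 0 under RLE and upper-quartile scaling, DESeq2, both other count filters, thinning of control replicate 1, removal of the length trend and both pseudocounts on the normalized table, and for subunits alone. It was 2 at an adjusted p under 0.1 (Cox6b2 and Ndufaf4). Without single samples it ranged from 0 to 1 (Cox6b2 without control replicate 3, Ndufaf4 without mimic replicate 5). With the replicate block it was 1 (Ndufa4l2), with 328 genes called in all against 495, and control replicate 6 left out. The median log2 fold change of members ranged from 0.004 to 0.02 without single samples, was 0.01 to 0.02 under the other settings, and turned to -0.002 with the length trend removed. Among members with at least 90% unique windows, an alternative chosen after seeing the data, 0 were called.

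Isoform shares passed the threshold under no setting. Where a sample was left out, fewer regroupings remained and the smallest p that could be reached was higher. Those settings therefore cannot decide whether a share passes. Their smallest adjusted exact p was 0.0635, for Atp5g1 with Atp5g3 without control replicate 4. Cox7a2/Cox7a1 changed sign in 5 of 11 fits that left out a sample, with values from -0.22 to 0.11 percentage points (0.024, 0.11, 0.072, 0.029 and 0.074 for the changed ones), and Cox6a1/Cox6a2 in 1, with values from -0.037 to 0.0079. Of the 11 members with a mean under 10 CPM, 2 had intervals inside 1.2-fold, and the part of depth in this was not tested.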
